A study of Mus musculus with 14 samples.

Results

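Gadd45a, a damage-inducible gene that was far higher in Lrpprc knockouts than in controls, was examined with its relatives Gadd45b and Gadd45g and with 6 genes of the p53 pathway (Cdkn1a, Trp53, Mdm2, Ccng1, Phlda3 and Btg2). These 9 genes were picked by name among 35275 genes in the table, and all 9 were among the 13079 genes expressed highly enough to be tested (a minimum of 1 FPKM in 3 or more animals). FPKM, the unit of all levels below, is the number of sequenced fragments relative to the length of the gene and the depth of the library, so levels can be compared between genes per length. Gadd45a was chosen because it was high in knockouts of these same animals, so its knockout values are given as a description, without a test. The other 8 were chosen to see whether p53 targets moved with it.

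The tissue was brown fat from 14 C57BL/6 mice aged 8 weeks, each library coming from a separate animal. All carried floxed Lrpprc alleles (LrpprcFF). Controls had no Cre, and knockouts had in addition Cre under the Ucp1 promoter, which is active in brown adipocytes, so the other cells of the tissue keep the gene. Lrpprc encodes a protein that stabilises mitochondrial mRNAs. There were 4 controls and 4 knockouts at room temperature (22 °C), and 3 controls and 3 knockouts at thermoneutrality (30 °C), where mice need no extra heat. RNA came from homogenised tissue with no stated step that isolates adipocytes, so for every gene below fewer cells of a type and less RNA per cell cannot be told apart.

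Depth was 15.9 to 21.3 M fragments per animal, and the 9 genes had between 25 and 14639 fragments each per animal. Lrpprc itself was 36.6 ± 11.0 FPKM in controls and 11.3 ± 1.35 in knockouts at 22 °C (SD, n = 4 each), and 29.7 ± 1.23 and 8.03 ± 1.99 at 30 °C (SD, n = 3 each). The brown adipocyte gene Ucp1 was abundant in every group (means of 367 to 2235 FPKM). The animals at 30 °C carried Xist (9.01 to 18.4 FPKM) and almost no Ddx3y (at most 0.0244), and those at 22 °C the reverse (Xist at most 0.0141, Ddx3y 14.5 to 23.1). Temperature and sex therefore cannot be told apart anywhere below. The identifiers of controls 3 and 4 at 22 °C begin with another letter (R) than those of the other animals (E). Control 1 at 30 °C stood apart in several of the genes below, and member results that rest on it are given without it. P-values measure the spread between animals.

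The 3 Gadd45 proteins are small, acidic stress sensors that lack enzyme activity. They act by binding partners: the kinase MAP3K4, which feeds the p38 and JNK pathways, the replication clamp PCNA, and the mitotic kinase complex of CDK1 and cyclin B1. GADD45A was found as a gene induced by DNA damage and growth arrest and is a classical p53 target, through an element in the third intron, but it is also induced without p53 by amino acid and endoplasmic reticulum stress. The protein p53, encoded by Trp53, is mostly regulated by its stability. Its ubiquitin ligase MDM2 is also its target and closes a feedback loop. CDKN1A (p21) inhibits cyclin-dependent kinases and carries out much of the p53 arrest, cyclin G1 (Ccng1) recruits a phosphatase that acts on MDM2, PHLDA3 restrains AKT at the membrane, and BTG2 is an antiproliferative protein whose gene is at once a p53 target and an immediate early gene.

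The promoter windows of the 9 genes are shown first, with their matches to a p53 half-site and other short motifs. A half-site is only part of a p53 element. Elements outside the windows, such as that in the third intron of GADD45A, were not searched. RefSeq promoter windows (250 bases before to 50 after a start site, build GRCm38.p6) were found for all 9 genes, with a pair of windows for Cdkn1a. Both strands were searched for the p53 half-site (by its name), TGATGNAA (the amino acid response element core), TGACGTCA (the cyclic AMP response element), the serum response factor site called CArG box, ATGCAAAT (the octamer), CCAAT and TATAAA. The sequences stop before the start site. The Gadd45a promoter is given over its whole upstream window, because this gene had the largest knockout difference of the 9. Capitals mark, from 5′ to 3′, an octamer on the minus strand, a CCAAT box, an octamer on the plus strand and a p53 half-site.
Gadd45a, chr6:67037408-67037657, minus strand: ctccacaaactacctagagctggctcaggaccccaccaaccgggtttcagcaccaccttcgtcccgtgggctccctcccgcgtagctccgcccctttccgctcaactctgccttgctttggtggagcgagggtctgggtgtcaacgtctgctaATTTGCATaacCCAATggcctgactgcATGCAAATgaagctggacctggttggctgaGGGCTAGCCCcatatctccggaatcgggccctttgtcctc
The half-site began 40 bases before the start site. A p53 half-site was in 8.36% of all 32851 windows of this length, an octamer in 1.74% and CCAAT in 37.4%. The amino acid response element core, found in 3.97% of windows, had no match in that of Gadd45a.

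The windows of 4 other members also held a p53 half-site, and stretches around them are given to compare their letters (capitals mark the half-sites).
Cdkn1a, chr17:29090889-29090958, plus strand: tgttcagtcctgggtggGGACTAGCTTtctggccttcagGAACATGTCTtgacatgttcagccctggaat
Mdm2, chr10:117710915-117710964, minus strand: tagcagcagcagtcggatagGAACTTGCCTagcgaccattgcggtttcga
Ccng1, chr11:40755442-40755491, minus strand: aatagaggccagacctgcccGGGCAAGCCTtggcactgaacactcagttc
Trp53, chr11:69580264-69580313, plus strand: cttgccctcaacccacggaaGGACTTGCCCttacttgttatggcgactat
The Cdkn1a stretch lies in the more upstream of its windows, and the other window of that gene had no match. The windows of Gadd45b, Gadd45g, Phlda3 and Btg2 held none. The Btg2 window held a cyclic AMP response element, found in 1.79% of all windows, and the Gadd45g window held the amino acid response element core on its minus strand, which shares bases with an octamer match there (capitals mark the cyclic AMP response element and the amino acid response element core).
Btg2, chr1:134079292-134079341, minus strand: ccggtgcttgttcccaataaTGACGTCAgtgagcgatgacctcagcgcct
Gadd45g, chr13:51846554-51846603, plus strand: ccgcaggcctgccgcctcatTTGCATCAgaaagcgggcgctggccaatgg
TATAAA, found in 13.6% of windows, was present in those of Gadd45b, Gadd45g and Trp53. No member had a CArG box (1.63% of windows). A match is only a run of letters, and nothing here measured binding to it.

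Gadd45a (ENSMUSG00000036390) was low in every control and high in every knockout. At 22 °C its level was 1.40, 1.10, 1.64 and 4.71 FPKM in the controls and 63.4, 53.1, 15.7 and 19.7 FPKM in the knockouts. At 30 °C it was 6.05, 3.18 and 3.92 FPKM in the controls and 52.9, 88.9 and 78.5 FPKM in the knockouts. The groups did not overlap at either temperature, and the lowest knockout (15.7) stood above the highest of all controls (6.05). The 22 °C knockouts fell apart into a pair of animals above 50 FPKM and a pair below 20. On the scale used for all differences, log2 of FPKM scaled between libraries plus 1, knockouts exceeded controls by 3.26 (SE 0.41) at 22 °C and by 3.51 (SE 0.47) at 30 °C. In order of level the groups were control 22 °C (mean 2.21 FPKM), control 30 °C (4.39), knockout 22 °C (37.98) and knockout 30 °C (73.5). Neighbours that differ in temperature did not pass the test: 22 °C minus 30 °C was -0.78 in controls (SE 0.44, limma adjusted p = 0.175) and -1.04 in knockouts (SE 0.44, limma adjusted p = 0.0654).

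Gadd45b (ENSMUSG00000015312), the family member best known as an NF-κB and TGF-β target, showed no knockout effect that passed the test. Its level at 22 °C was 2.62, 3.72, 7.66 and 8.26 FPKM in controls and 2.995, 14.99, 14.8 and 6.85 FPKM in knockouts. The 30 °C levels were 23.1, 10.9 and 14.2 FPKM in controls and 39.5, 23.3 and 25.4 FPKM in knockouts. As deposited the 30 °C knockouts were all above the controls, the lowest of them only just, and after scaling the groups overlapped. The difference was 0.38 at 22 °C (SE 0.43, limma adjusted p = 0.72) and 0.57 at 30 °C (SE 0.49, limma adjusted p = 0.495).

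Gadd45g (ENSMUSG00000021453), the family member linked to cytokine signals and differentiation, was the most abundant of the 3 by mean in controls and varied widely within groups. At 22 °C it was 27.2, 108, 98.1 and 189 FPKM in controls and 91.7, 31.5, 74.7 and 97.8 FPKM in knockouts. Levels at 30 °C were 17.1, 183 and 124 FPKM in controls and 197, 99.4 and 142 FPKM in knockouts. Groups overlapped at both temperatures, with a low animal in each control group and in the 22 °C knockouts. The difference was -0.64 at 22 °C (SE 0.69, limma adjusted p = 0.706) and 0.63 at 30 °C (SE 0.79, limma adjusted p = 0.661). The 30 °C value rested on control 1 and was -0.40 without it.

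The bars of family shares show each animal's total divided among the 3 genes. Gadd45a made up 2.33 ± 1.53% of the FPKM summed over the family in controls, and the knockouts reached 31.0 ± 18.9% at 22 °C (SD, n = 4 each). At 30 °C the shares were 5.83 ± 6.32% and 30.8 ± 11.9% (SD, n = 3 each). Gadd45g held 91.9% and 59.8% in controls and knockouts at 22 °C, and 72.4% and 57.6% at 30 °C (means). Control 1 at 30 °C differed from the other controls: Gadd45b made up 49.9% of its family total, beside its low Gadd45g.

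**Figure D1:**
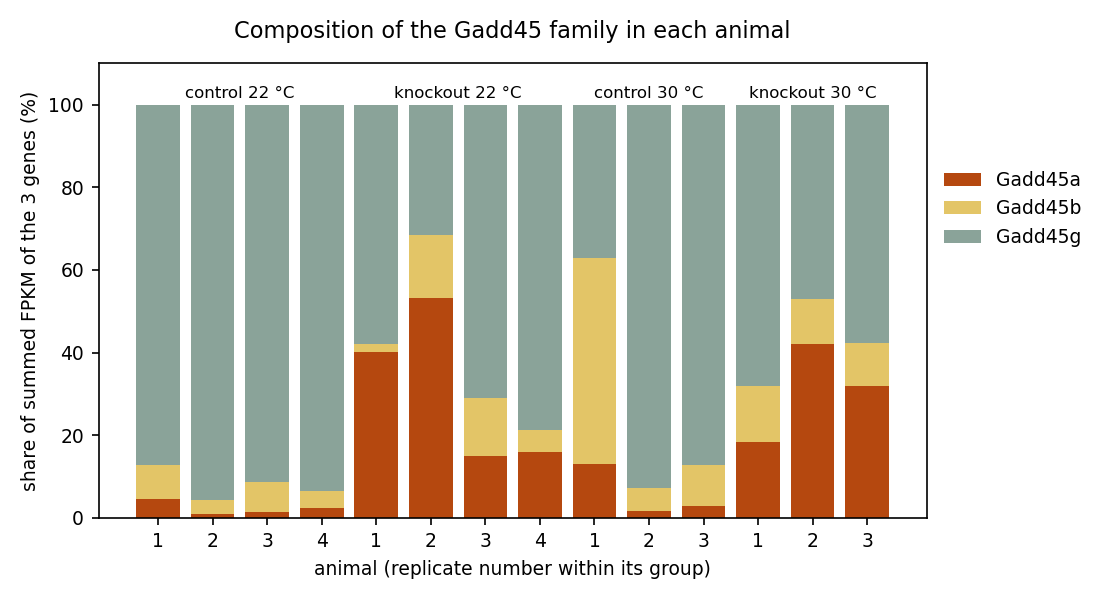
Share of each Gadd45 gene in the summed FPKM of the 3 genes (%), stacked to 100%, in each of the 14 animals (replicate number within its group). Gadd45a takes 14.9 to 53.3% in the 22 °C knockouts and 0.973 to 4.47% in their controls.

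Trp53 (ENSMUSG00000059552), the gene of p53 itself, did not pass the adjusted test at either temperature. After scaling it was the only such member with knockouts clear of controls at both temperatures, and as deposited Mdm2 was too. At 22 °C Trp53 was 3.44, 4.56, 5.46 and 6.45 FPKM in controls and 11.8, 11.1, 8.09 and 7.39 FPKM in knockouts. At 30 °C it was 11.0, 10.6 and 11.8 FPKM in controls and 18.9, 16.04 and 24.9 FPKM in knockouts. The groups did not overlap. The difference was 0.57 at 22 °C (SE 0.17, limma adjusted p = 0.108, unadjusted 0.0048) and 0.48 at 30 °C (SE 0.19, limma adjusted p = 0.117, unadjusted 0.0262). The call depended on the settings. With FPKM as deposited the differences were 0.83 (limma adjusted p = 0.00911) and 0.76 (limma adjusted p = 0.0146), and when nuclear genes were scaled to one total, they were 0.69 (limma adjusted p = 0.0426) and 0.63 (limma adjusted p = 0.0366). Sample weights on the unchanged scaling also passed, at 0.66 (limma adjusted p = 0.0163) and 0.63 (limma adjusted p = 0.0105), as did the 30 °C difference without knockout 2 (0.64, limma adjusted p = 0.0438). The deposited values shift the median of all genes by 0.24 at 22 °C and 0.31 at 30 °C.

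Mdm2 (ENSMUSG00000020184), whose protein degrades p53 and limits its own inducer, came close to the threshold at 30 °C. At 22 °C it was 12.2, 13.4, 12.9 and 14.3 FPKM in controls and 25.0, 19.4, 14.8 and 18.9 FPKM in knockouts. The values at 30 °C were 9.50, 10.4 and 11.5 FPKM in controls and 19.4, 17.3 and 17.4 FPKM in knockouts. The 30 °C groups did not overlap, and the 22 °C groups overlapped only after scaling. The difference was 0.22 at 22 °C (SE 0.12, limma adjusted p = 0.411) and 0.45 at 30 °C (SE 0.14, limma adjusted p = 0.0508), just short of the threshold of 0.05. A filter that kept only genes with a mean of at least 5 FPKM put the same 30 °C difference past it (limma adjusted p = 0.0449), as did FPKM as deposited (0.73, limma adjusted p = 0.0035). It also passed with one total for nuclear genes (0.60, limma adjusted p = 0.0117) and with sample weights (0.45, limma adjusted p = 0.0133).

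Cdkn1a (ENSMUSG00000023067), the arrest gene p21, rose in knockouts at 30 °C. There it was 19.0, 44.6 and 22.8 FPKM in controls and 153, 122 and 135 FPKM in knockouts. The lowest knockout exceeded the highest control by more than any spread within either group. The difference was 2.002 (SE 0.40, limma adjusted p = 0.00672), a 4.01-fold rise. At 22 °C it was 40.6, 41.1, 37.0 and 72.5 FPKM in controls and 143, 40.8, 67.9 and 83.3 FPKM in knockouts, and the groups overlapped. The difference there was 0.41 (SE 0.34, limma adjusted p = 0.614).

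Ccng1 (ENSMUSG00000020326) and Phlda3 (ENSMUSG00000041801), both strong p53 targets in many tissues, showed no knockout effect that passed the test. Ccng1 at 22 °C was 51.5, 49.7, 55.7 and 46.4 FPKM in controls and 42.6, 51.7, 52.1 and 66.0 FPKM in knockouts. At 30 °C it was 42.9, 28.9 and 24.8 FPKM in controls and 40.3, 40.6 and 42.6 FPKM in knockouts. Its groups overlapped at both temperatures. The difference was -0.25 at 22 °C (95% interval -0.61 to 0.10, limma adjusted p = 0.497) and 0.09 at 30 °C (-0.32 to 0.50, limma adjusted p = 0.805). Phlda3 was the most abundant member per length. It was 166, 125, 262 and 174 FPKM in controls and 316, 262, 299.7 and 260.2 FPKM in knockouts at 22 °C. The 30 °C values were 304, 388 and 370 FPKM in controls and 323, 427 and 459 FPKM in knockouts. Control 3 reached into the knockout range at 22 °C, and the 30 °C groups overlapped. The Phlda3 difference was 0.38 at 22 °C (95% interval -0.01 to 0.78, limma adjusted p = 0.334) and -0.12 at 30 °C (-0.58 to 0.34, limma adjusted p = 0.765). The sign at 30 °C turned with FPKM as deposited (0.18), quantile normalization (0.21) and one total for nuclear genes (0.037).

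Btg2 (ENSMUSG00000020423), the member that is also an immediate early gene, rose in knockouts at 30 °C. At 22 °C it was 5.35, 9.77, 10.6 and 20.3 FPKM in controls and 12.03, 16.1, 14.97 and 14.8 FPKM in knockouts, which all lay inside the control range. At 30 °C it was 16.04, 79.1 and 52.7 FPKM in controls and 166, 276 and 143 FPKM in knockouts, with no overlap. The difference was 0.16 at 22 °C (SE 0.42, limma adjusted p = 0.894) and 1.87 at 30 °C (SE 0.48, limma adjusted p = 0.0216), a 3.66-fold rise. Without control 1 at 30 °C, the low one, the difference was 1.22 (limma adjusted p = 0.0684) and no longer passed. It also fell short without knockout 1 (1.93, limma adjusted p = 0.058), without knockout 2 (1.62, limma adjusted p = 0.0571) and when only the groups compared were fitted (1.87, limma adjusted p = 0.0851).

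**Figure D2:**
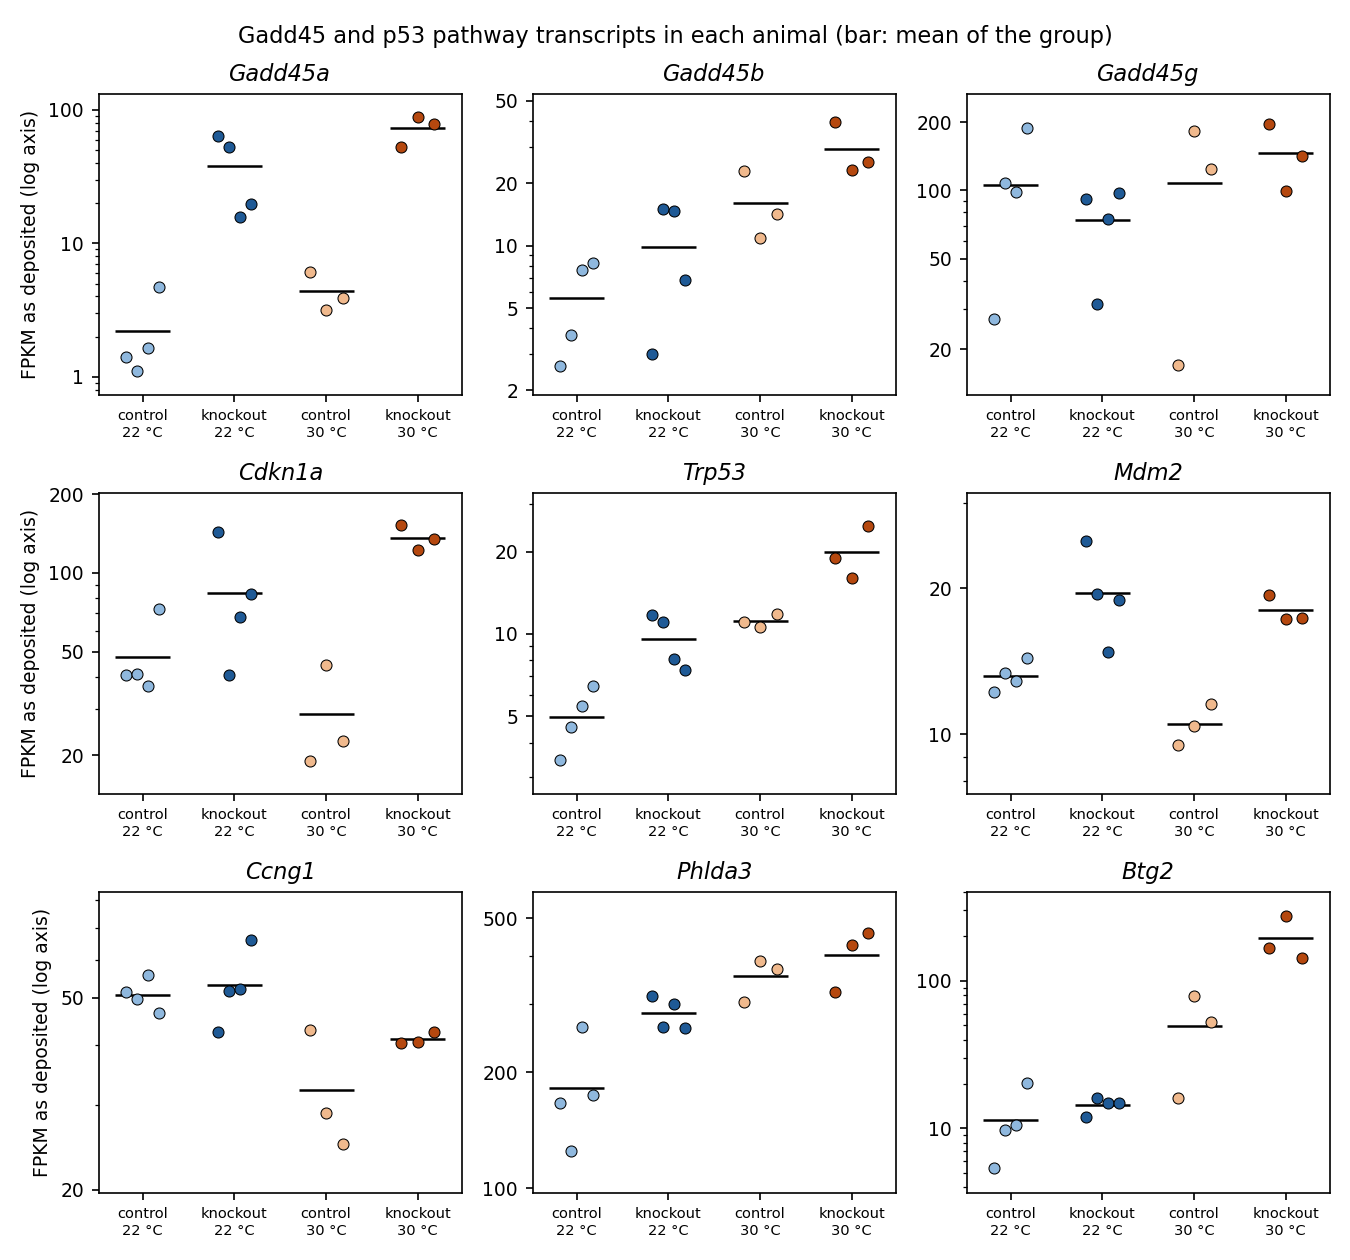
FPKM as deposited (log axis, a range of its own for each gene) of the 9 genes in each animal, with the group mean as a bar. Gadd45a, Trp53 and Mdm2 separate knockouts from controls at both temperatures, while Cdkn1a, Btg2 and Gadd45b do so at 30 °C and overlap at 22 °C. The separation of Mdm2 at 22 °C and of Gadd45b at 30 °C was lost after scaling.

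Of the 8 genes other than Gadd45a none passed the test at 22 °C: 0 of 8 were called by limma, 1 (Trp53) at an unadjusted p under 0.05, and 0 with limma voom on recovered reads. Of all genes tested, 1.97% were called in that comparison, 15.8% had an unadjusted p under 0.05, and 1.51% were called with limma voom. At 30 °C 2 of 8 were called, Cdkn1a and Btg2, both higher, beside 14.1% of all genes called in either direction and 8.82% called higher. Groups did not overlap for 1 of 8 at 22 °C (9.38% of all genes) and for 4 of 8 at 30 °C (36.8% of all genes), namely Cdkn1a, Trp53, Mdm2 and Btg2. The median difference of the 8 was 0.30 at 22 °C and 0.53 at 30 °C, and that of all genes 0.0024 and 0.065. With FPKM as deposited 3 of 8 were called at 22 °C (Trp53, Mdm2 and Phlda3) and 4 of 8 at 30 °C, all higher. Under that setting 24.8% of all genes were called at 22 °C, 3167 higher and 81 lower, and 34.9% at 30 °C, 4280 higher and 291 lower.

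**Figure D3:**
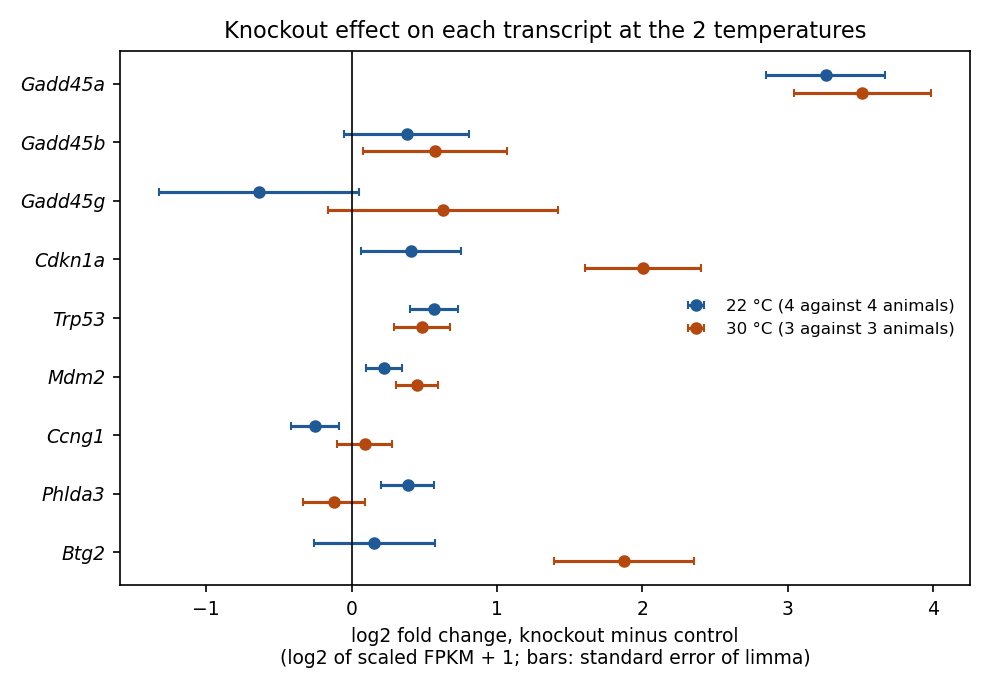
Log2 fold change, knockout minus control, of each gene on the log2(scaled FPKM + 1) scale at 22 °C (blue) and 30 °C (orange), with the standard error as bars. Gadd45a lies at 3.26 and 3.51, and Cdkn1a and Btg2 lie near 2 at 30 °C and nearer to 0 at 22 °C.

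Whether the knockout effect differed between temperatures was tested directly, as the effect at 22 °C minus that at 30 °C. No member passed (0 of 9), nor did any of the 13079 genes tested (0%). With sample weights 85 genes were called higher and 128 lower, none of them a member. At an unadjusted p under 0.05 there were 2 of 9, Cdkn1a and Btg2, beside 13% of all genes. For Cdkn1a the difference of effects was -1.59 (SE 0.53, limma adjusted p = 0.247, unadjusted 0.00959), and for Btg2 -1.72 (SE 0.64, limma adjusted p = 0.286, unadjusted 0.0184). For Gadd45a it was -0.25, with a 95% interval of -1.60 to 1.10 (limma adjusted p = 0.9), and for Trp53 0.08 (-0.47 to 0.63, limma adjusted p = 0.93). The intervals of Gadd45a and Trp53 leave room for effects of either sign.

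A wider list held 34 other p53 targets, of which 29 were tested (Ckap2, Eda2r, Gtse1, Perp and Pmaip1 were too low). The p53 protein was not measured, and a listed gene can have other inducers. In the 30 °C knockouts 9 of 17 stress response genes and 15 of 20 immediate early genes, described below, were also higher. What raised the listed targets was not tested. At 22 °C 0 of 29 passed (1.97% of all genes), with a median difference of 0.12 (0.0024 over all genes). At 30 °C 6 rose and 1 fell, with a median of 0.20 (0.065 over all genes). Of all genes 14.1% were called there and 8.82% called higher. The targets that rose were Gdf15, a secreted stress hormone (3.79), Plk3 (1.97) and Plk2 (0.83), stress kinases of the polo family, Sesn2, a nutrient stress protein that restrains mTORC1 (1.32), Tnfrsf10b, a death receptor (1.10), and Bbc3, the BH3-only killer PUMA (0.97). Triap1, which is known as a p53-regulated inhibitor of apoptosis, fell by 0.41, and passed in 2 of the 6 fits that left out an animal. The counts moved with the scaling: FPKM as deposited gave 12 higher and 0 lower at each temperature, and one total for nuclear genes 1 higher at 22 °C and 11 at 30 °C, with 0 lower. Over all genes FPKM as deposited called 3167 higher and 81 lower at 22 °C, and 4280 and 291 at 30 °C. One total called 390 higher and 75 lower at 22 °C, and 2239 and 408 at 30 °C. The counts of targets also moved with single animals, with 2 higher and 1 lower at 30 °C without control 1 and 2 higher and 0 lower without knockout 3.

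Values of the called targets show how they lay between animals. Gdf15 was 0.306, 10.9 and 3.18 FPKM in the 30 °C controls and 50.7, 26.1 and 210.2 FPKM in the knockouts, with knockout 3 far above the rest. Tnfrsf10b was 3.69, 5.02 and 4.61 FPKM in those controls and 15.3, 12.2 and 11.7 FPKM in those knockouts, a clear gap (limma adjusted p = 0.00443). Bbc3 was 9.64, 6.98 and 8.23 FPKM in controls and 19.2, 17.03 and 28.1 FPKM in knockouts (limma adjusted p = 0.0165). All 6 that rose kept the 30 °C groups apart. Gdf15 (limma adjusted p = 0.0131 with all animals) fell short without control 1 (2.96, 0.0569) or knockout 3 (2.96, 0.0618), and Sesn2 without the same animals (1.06, 0.0644, and 1.11, 0.0681). Plk3 fell short without control 1 or knockout 1, Bbc3 without control 2 or knockout 3, and Plk2 whichever of the 6 animals was left out. Tnfrsf10b passed in all 6 of those fits.

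Several p53 targets known from many tissues did not pass at either temperature. Zmat3, an RNA-binding tumour suppressor, differed by 0.16 at 22 °C and 0.16 at 30 °C, and Bax, the pore-forming apoptosis protein, by 0.36 and 0.67 (limma adjusted p = 0.42 and 0.0735). Sesn1, a relative of Sesn2, differed by -0.30 and 0.27. These 3 were named after their values were seen. Of the genes that control p53 or resemble it (Atm, Atr, Chek2, Mdm4 and others), 10 of 14 were tested and 0 of 10 passed at either temperature, with medians of 0.13 and 0.048. Of all genes 1.97% and 14.1% were called.

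**Figure D4:**
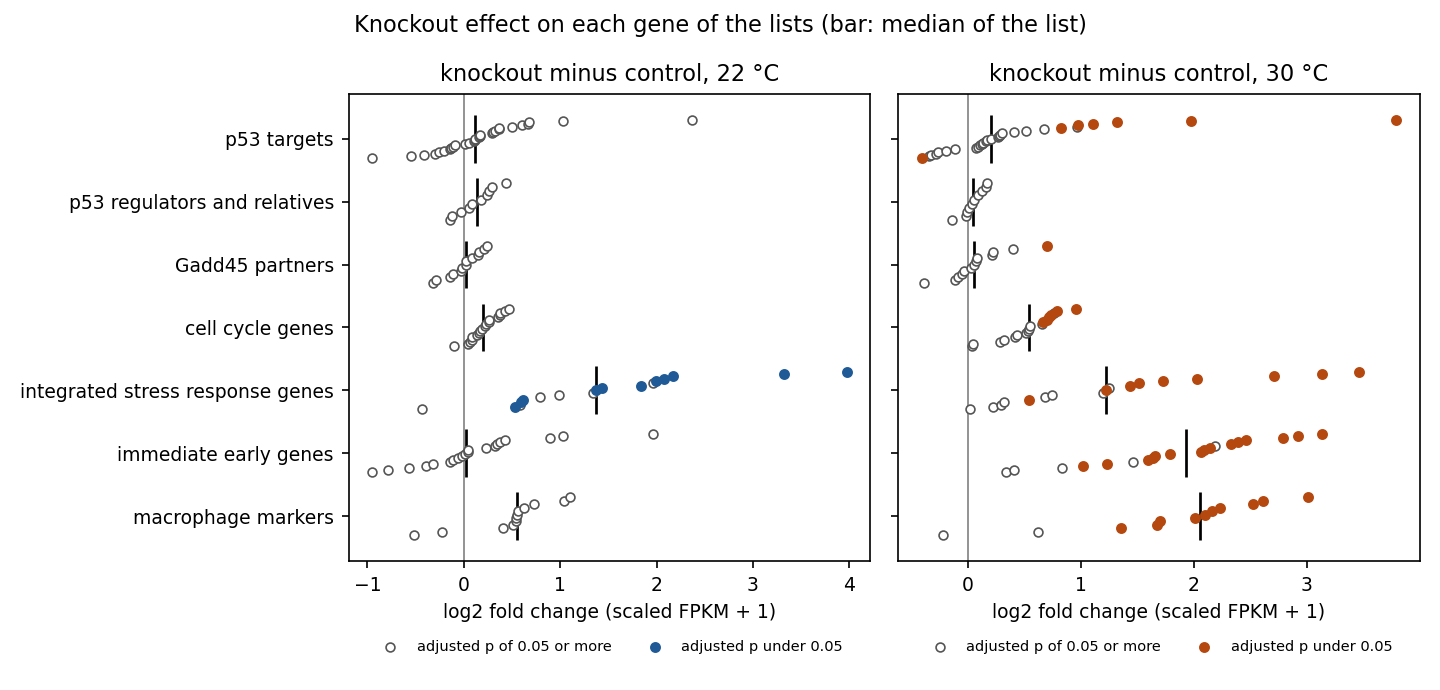
Log2 fold change, knockout minus control, of each tested gene of 7 lists at 22 °C (left) and 30 °C (right), filled where the adjusted p is under 0.05, with the median of the list as a bar. At 22 °C only integrated stress response genes are filled among these lists, and at 30 °C filled points appear in 6 of the 7.

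Genes whose products work with the Gadd45 proteins mostly did not pass the test. Of 16 partners (p38 and JNK pathway kinases, Pcna, demethylation enzymes and others) 13 were tested. At 22 °C 0 of 13 passed (1.97% of all genes), and at 30 °C 1 did (14.1% of all genes), Pcna, the sliding clamp of DNA replication. Pcna was 23.3, 26.9 and 25.9 FPKM in 30 °C controls and 59.9, 46.9 and 47.9 FPKM in knockouts, a difference of 0.70 (SE 0.12, limma adjusted p = 0.00364). Map3k4, the kinase that Gadd45 proteins activate, differed by 0.21 at 22 °C and -0.05 at 30 °C (limma adjusted p = 0.332 and 0.828). Cdk1 and Ccnb1, the mitotic partners, were too low to test.

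No tested gene of the cell cycle, the process that p21, Gadd45 proteins and BTG2 restrain, passed as lower in knockouts. At 22 °C 0 of 18 tested passed (22 listed, median 0.20), beside 1.97% of all genes called (median 0.0024). At 30 °C 6 of 18 rose and 0 fell (median 0.55), beside 8.82% of all genes called higher (median of all genes 0.065). They were Pcna, Mcm5 (0.79), E2f1 (0.95), Cdc20 (0.73), Aurkb (0.72) and Plk1 (0.67). Leaving out an animal gave 1 gene without knockout 1, 2 without control 1 or control 2, 3 without knockout 3, 7 without control 3 and 10 without knockout 2. Pcna passed in all 6 of these fits, Mcm5 in 5, E2f1, Cdc20 and Aurkb in 2 each and Plk1 in 1. The summed level of the 22 genes was small in every group, 52.3 to 68.3 scaled FPKM in 30 °C controls and 80.7 to 127 in knockouts. Among the 5 tested inhibitors related to Cdkn1a, Cdkn2c (p18) fell by 0.77 at 30 °C (SE 0.18, limma adjusted p = 0.0146), and passed in 4 of the 6 fits that left out an animal. The other 4 did not pass at either temperature. Beside these 5 inhibitors, 1.97% of all genes were called at 22 °C and 14.1% at 30 °C.

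Gadd45a is also a gene of the integrated stress response, in which restricted translation initiation raises the factor ATF4. Of 17 tested genes of that response, 11 rose at 22 °C (median 1.37), beside 1.97% of all genes called. At 30 °C 9 rose (median 1.22), beside 8.82% of all genes called higher. None (0) were called lower at either temperature. The 22 °C count was 5 without knockout 2, 7 without control 1, 2 or 4 or without knockout 1, and 5 when only the groups compared were fitted, and the 30 °C count was 6 without knockout 3. Ddit3, the gene of the stress factor CHOP, was 22.0, 24.2, 27.2 and 35.8 FPKM in 22 °C controls and 261, 211, 109 and 91.7 FPKM in knockouts. Its 2 highest 22 °C knockouts, 1 and 2, were those with the highest Gadd45a. The same animals also had the highest Trp53 (11.8 and 11.1 FPKM) and Mdm2 (25.0 and 19.4 FPKM) of that group. Each of the other members had another pair highest. Trib3, a pseudokinase induced by CHOP and ATF4, was 3.15, 4.07, 3.72 and 5.52 FPKM in the 22 °C controls and 164, 181, 65.8 and 39.9 FPKM in the 22 °C knockouts. Ddit3 and Trib3 passed the test at both temperatures (differences for Ddit3 2.17 and 1.22, Trib3 3.97 and 3.46, limma adjusted p from 4.16e-05 to 0.0185), though Ddit3 at 30 °C did not without control 1 (limma adjusted p = 0.0636) or knockout 3 (limma adjusted p = 0.0753). This list was known to be high in these animals when it was chosen, so its direction is no independent evidence.

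The genes most like each member across the 14 animals were found by Pearson's r of log2(scaled FPKM + 1). These animals share the 4 groups, which raises any such r, so the r after subtracting group means is given as well. Closest to Gadd45a were Trib3 (r = 0.9754, 0.835 within groups), Arhgef2 (0.970, 0.892), Cbr3, a carbonyl reductase (0.965, 0.607), Cyb5r1 (0.962, 0.870) and Slc7a1, a cationic amino acid transporter (0.961, 0.825). Extl1, Wars, Aldh18a1, Gtpbp2 and Ddit3 followed (0.933 to 0.957). No p53 pathway member was among these 10, which decides nothing about p53, since they are the top of 13079 genes. The ranking also carries the knockout rise for which Gadd45a was chosen. Against the p53 pathway members the r of Gadd45a was 0.692 for Trp53 (0.615 within groups), 0.637 for Cdkn1a (0.101), 0.494 for Mdm2 (0.422), 0.478 for Btg2 (-0.013), 0.358 for Phlda3 (0.0080) and -0.373 for Ccng1 (-0.354).

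Btg2 was closest to Ier2 (0.987), Tnf (0.984) and Fos (0.984), with within-group values of 0.919, 0.914 and 0.880. Trp53 was closest to Rrp9 (0.977), Cog1 (0.971) and Noc2l (0.971), and Mdm2 to Slc38a2, an amino acid transporter (0.945). Ccng1 was closest to Phkb, a subunit of phosphorylase kinase (0.973), Cdkn1a to Ppp2cb (0.931), Phlda3 to Psmf1 (0.940) and Gadd45b to Dynlt1f (0.952).

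Immediate early genes were high in the same animals as Btg2. Of 20 such genes, transcribed within minutes of a stimulus (Atf3 is also on the stress response list), 0 passed at 22 °C (median 0.025) and 15 rose at 30 °C (median 1.93, 0 lower). Of all genes 1.97% were called at 22 °C and 8.82% called higher at 30 °C. Fos was 2.86, 36.3 and 16.9 FPKM in the 30 °C controls and 127, 218 and 72.3 FPKM in the knockouts, and it was low in control 1, where Btg2 and Gadd45g were also low. At 22 °C Fos was at most 1.98 FPKM in any animal. The summed level of the 20 genes was 407 to 1741 scaled FPKM in 30 °C controls and 2699 to 3346 in knockouts, against 174 to 445 and 234 to 284 at 22 °C. Without control 1, 10 of the 20 were called at 30 °C (median 1.35), and without knockout 3, 9 were. The part of this response in the Btg2 and Cdkn1a values was not tested.

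**Figure D5:**
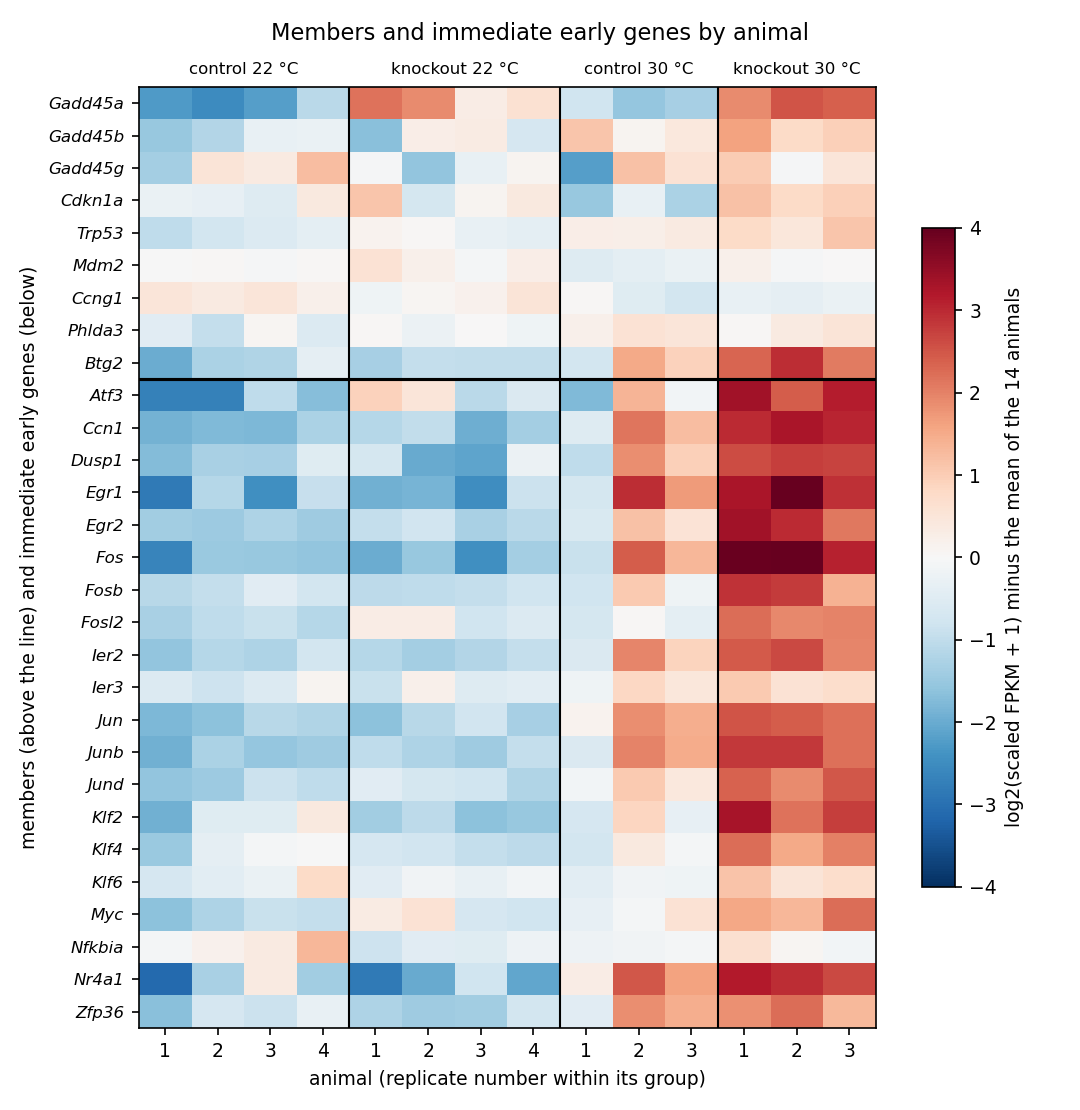
Log2(scaled FPKM + 1) minus the mean of the 14 animals for the 9 members (above the line) and the 20 immediate early genes (below), by animal. Btg2 and most immediate early genes are highest in the 3 knockouts at 30 °C and lower in control 1 than in controls 2 and 3 there, while Gadd45a is high in knockouts at both temperatures.

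Markers of several cell types moved as well, beside 1.97% of all genes called at 22 °C and 14.1% at 30 °C (8.82% higher). Endothelial markers (0 of 7) and the tested lymphocyte markers (0 of 6) passed at neither temperature. Of 12 macrophage markers 0 passed at 22 °C and 10 rose at 30 °C, among them Cd68 (2.61), Trem2 (3.01) and Csf1r (1.68). Their summed level was 148 to 476 scaled FPKM in 30 °C controls and 716 to 2040 in knockouts, against 72.3 to 108 and 117 to 244 at 22 °C, and no marker of the list was at 0 in a whole group. Fibroblast and preadipocyte markers rose for 6 of 7 at 30 °C and 0 of 7 at 22 °C, with sums of 278 to 322 and 515 to 1022 scaled FPKM at 30 °C. Of 8 brown adipocyte markers 1 passed at 22 °C, Ppargc1a, which rose by 1.14 (limma adjusted p = 0.0411). It passed in 2 of the 8 fits without 1 animal. At 30 °C 4 of the 8 fell (Ucp1, Cox8b, Cidea and Otop1) and 0 passed as higher. Dio2 lay at 0.98 there without passing (limma adjusted p = 0.236). The 30 °C sums were 4529 to 6197 in controls and 2083 to 2926 in knockouts. With an animal left out at 30 °C, Cox8b passed in all 6 fits, Otop1 in 3, and Ucp1 and Cidea in 2 each. Of 8 markers of adipocytes in general, 2 fell at 22 °C (Adipoq by 0.79 and Cidec by 0.71, which passed in 6 and 4 of the 8 fits without 1 animal) and 3 at 30 °C (Adipoq by 1.24, Cidec by 1.21 and Fabp4 by 0.85, with the sign of Fabp4 turned under quantile normalization, 1.49). Their sums did not overlap at 22 °C, with 14285.5 to 18042.5 scaled FPKM in controls and 10718 to 12237 in knockouts, nor at 30 °C, with 10800 to 12667 and 6159 to 8372. Within the list, Pparg (0.46) and Plin1 (0.44) lay higher in 22 °C knockouts without passing (limma adjusted p = 0.106 and 0.217). Of the 8 markers 2 kept the 22 °C groups apart as higher and 3 as lower, beside 9.38% of all genes in either direction. Skeletal muscle markers passed in neither comparison (0 of 10), but their sum in 30 °C controls ran from 25.9 to 15323. The part of these cells in the values of Gadd45a, Cdkn1a and Btg2 was not tested.

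In controls most members differed between temperatures, as did many genes of the table, and sex cannot be told apart from temperature. The test called 6 of 9, beside 38.8% of all genes. Lower at 22 °C were Btg2 (-1.79), Gadd45b (-1.35), Trp53 (-0.97) and Phlda3 (-0.90), and higher were Ccng1 (0.78) and Mdm2 (0.41). The limma adjusted p ran from 0.00184 (Trp53) to 0.0343 (Gadd45b). The Gadd45b call was lost without 22 °C control 1 or 2 or 30 °C control 1 or 3, and the Mdm2 call without 22 °C control 1 or 2 or 30 °C control 1 or 2. Groups did not overlap for 5 of 9, the called members except Btg2, beside 43.5% of all genes. In knockouts 3 of 9 were called, beside 51.1% of all genes: Btg2 (-3.50), Gadd45b (-1.54) and Trp53 (-0.89). Without 30 °C knockout 1, Gadd45b fell short there (-1.29, limma adjusted p = 0.0654), and without 22 °C knockout 1, Gadd45a, Cdkn1a and Ccng1 passed as well (-1.35, -1.03 and 0.55), as did Gadd45a without 22 °C knockout 2 (-1.25). Trp53 was thus called lower at 22 °C in both genotypes, while Mdm2 was called higher at 22 °C in controls (limma adjusted p = 0.0276) and differed by 0.18 in knockouts (limma adjusted p = 0.261).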

How the data were processed

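RNA from brown fat of 14 mice was measured, with 4 controls and 4 knockouts at 22 °C and 3 of each at 30 °C, grouped by the genotype and housing temperature in the labels. The authors deposited FPKM, one column per animal, and per the submitters' processing notes the genome build was mm9. The aligner, the counting tool, its use of strand and the annotation are not given in the sources used here. Of 35275 gene identifiers 34490 matched GENCODE M21 symbols. The promoter windows come from another build (GRCm38.p6), so no gene coordinates are paired with the values.

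The members and all gene lists were chosen with earlier results of these data known. Genes named beyond the 9 members are listed genes called in a knockout comparison (at most the 8 with the smallest adjusted p per list and comparison), the 10 genes with the highest Pearson r with Gadd45a and the 3 highest for each other member, with exceptions stated where they occur. The genes closest to Gadd45g are not reported here.

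A gene entered the tests when 3 or more of the 14 animals reached 1 FPKM, which kept 13079 genes. Libraries were scaled by the median ratio over 10049 nuclear genes detected in all libraries, with multipliers of 0.835 to 0.955 for knockouts and 1.06 to 1.22 for controls. Genes encoded in mitochondria took no part in this scaling, and their levels are not reported here. A pseudocount of 1 was added before taking log2, which understates differences of low genes. limma 3.58.1 in R 4.3.3 (lmFit, eBayes with trend) fitted a mean for each of the 4 groups to all animals, with Benjamini-Hochberg adjustment over all genes of a comparison. An adjusted p under 0.05 was called. Values per animal are FPKM as deposited, differences and overlaps are on the scaled values unless stated.

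Whole fragments were recovered from the steps in the FPKM of 99.99% of genes tested (13078, within 0.02 fragments), which gave the depth of 15.9 to 21.3 M fragments per animal and an added alternative, limma voom on recovered reads, chosen after seeing the data. It called 0 of 8 members at 22 °C (1.51% of all genes) and 2 of 8 at 30 °C (13.9% of all genes). Fragment numbers cover counting error only. The scripts were tested on simulated data. Replicates differed by more than counting error in every pair. Alternatives were another pseudocount, filters, scalings, weights and designs, and leaving out each animal.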

Additional observations from a re-analysis of the deposited data

Results flagged for a closer look

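Both results below come from controls at 22 °C, where a single animal lay far from the other three by Dixon's test at the 95% level. Gadd45a was 4.71 FPKM in control 4, and 1.40, 1.10 and 1.64 FPKM in controls 1 to 3. Cdkn1a was 72.5 FPKM in the same animal, and 40.6, 41.1 and 37.0 FPKM in the others. Control 4 is 1 of the 2 with an R identifier. The test was made on 18 groups of 4, of which chance alone marks about 1 in 20. Without this animal the difference between the Gadd45a knockout effects at 22 °C and 30 °C was 0.058 instead of -0.25.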

How the results depend on the processing

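For the knockout effect at 22 °C the count was 0 of 8 (1.97% of all genes called), and 3 with FPKM as deposited (24.8% of all genes). It was 1 each with one total for nuclear genes (3.56%) and with sample weights (6.93%), and 0 in all 8 fits that left out an animal. For the knockout effect at 30 °C it was 2 of 8 (14.1% of all genes). It was 4 each with FPKM as deposited (34.9%), one total (20.2%) and sample weights (27.9%), and 1 with only the groups compared (9.43%). Without 1 animal it was 1 to 2 (1 without control 1 or knockout 1). For temperature in knockouts it was 3 of 9 (51.1% of all genes). It was 5 each with quantile normalization (54.5%) and only the groups compared (52.4%), and 7 with sample weights (60.2%). Without 1 animal it was 2 to 6 (2 without 30 °C knockout 1, 6 without 22 °C knockout 1). For temperature in controls it was 6 of 9 (38.8% of all genes) and 4 to 6 without 1 animal, with 7 under sample weights (57.9%). It was 0 for the difference of knockout effects throughout.

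No called difference of a member changed sign. Signs of uncalled ones turned as follows; with each animal left out in turn, ranges are given in parentheses. The knockout effect at 22 °C became 0.047 for Ccng1 with FPKM as deposited and -0.10 for Btg2 without control 1 (-0.10 to 0.44). At 30 °C it became -0.40 for Gadd45g without control 1 (-0.40 to 1.29), -0.078 for Ccng1 without control 3 (-0.078 to 0.31), and for Phlda3 0.18 with FPKM as deposited, 0.21 with quantile normalization, 0.037 with one total and 0.0049 without knockout 1 (-0.23 to 0.0049). The difference of knockout effects became 0.045 for Gadd45a with sample weights, 0.13 without the R controls, 0.026 with limma voom, and 0.058 and 0.066 without 22 °C control 4 or knockout 3 (-0.56 to 0.066). For Gadd45b it became 0.31 with sample weights, 0.33 without the R controls, and 0.22, 0.026 and 0.055 without 22 °C knockout 1, 30 °C control 2 or 30 °C knockout 1 (-0.47 to 0.22). For Trp53 it became -0.032, -0.0081 and -0.079 without 22 °C control 1, 22 °C knockout 1 or 30 °C knockout 2 (-0.079 to 0.24). Temperature in controls became -0.28 for Gadd45g without the R controls, and -0.022 and -0.70 without 22 °C control 4 or 30 °C control 1 (-0.70 to 0.99). Fabp4, an adipocyte marker called lower at 30 °C (-0.85), became 1.49 with quantile normalization. The cause was not tested in any of these.

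No paired analysis was possible because the animals carry individual identifiers and the replicate numbers pair no animals. With 3 or 4 animals in a group, a difference that missed the threshold does not show that levels were alike.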
